A study of Homo sapiens with 12 samples.

Results

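Collagens, laminins and the other structural glycoproteins of the extracellular matrix were followed in H7, a line of human embryonic stem cells, during directed differentiation into cardiomyocytes. The members were chosen by symbol: collagen chains, laminin chains, fibrillins, fibulins, nidogens and thrombospondins, together with FN1, HSPG2, SPARC, TNC, VCAN, BGN, ELN, AGRN and PAPLN. Each also had to reach 1 FPKM, a read count scaled to transcript length and library depth, in at least 2 of the 12 libraries. This gave 61 genes of the 17096 listed, and of the 16295 that reached the same level. In all 64 symbols matched, and COL15A1, COL17A1 and COL8A2 stayed outside with second-highest values of 0.868, 0.890 and 0.972 FPKM. Just inside stood LAMB3 with a second-highest value of 1.56 FPKM and COL19A1 with 2.59 FPKM. COL3A1, POSTN, LUM and DCN were not analysed here. At each of days 3, 7 and 15 there were 2 libraries labelled E2A-/- and 2 labelled wild type, in 6 groups that share the H7 line. The labels call the cells cardiac mesoderm at day 3 and cardiomyocytes at days 7 and 15. TCF3, formerly E2A, encodes an E protein, a helix-loop-helix factor that binds DNA at E-boxes. The sources used here do not give the number of clones, the edited position or the origin of the replicates. The p-values therefore describe the spread between these libraries, which can be technical.

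Basement membranes are thin sheets of type IV collagen and laminin, tied together by nidogens and by the heparan sulfate proteoglycans perlecan and agrin, and they lie under epithelia and around muscle cells. Laminins are trimers of an alpha, a beta and a gamma chain, whereas fibrillar collagens assemble from processed chains into the banded fibrils of the interstitial matrix. Fibronectin is laid down early and serves as a scaffold for collagens and fibrillin microfibrils, and matricellular proteins such as SPARC, tenascins and thrombospondins modulate how cells attach. In the developing heart, a matrix rich in fibronectin, versican and fibrillins precedes the basement membrane that encloses each maturing cardiomyocyte.

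Promoter sequence is shown for the genes on which the results turn most. COL4A1 and COL4A2 lie head to head on chromosome 13 and share the stretch between their starts, FN1 was lower at every day, FBN2 turned round between days, and PAPLN had the largest genotype change of all members. The sequences are from RefSeq on GRCh38.p14, the first covering the stretch between the RefSeq starts of the pair, the others the 250 bases before the annotated start on the strand of the gene. For PAPLN the table lists 2 starts, and the first is used. The gene bounds printed further on are those of GENCODE 29, which begin farther upstream than the RefSeq starts, so that part or all of each window lies within the gene by those bounds. Capitals mark 4 motifs on either strand, with overlapping matches joined. The E-box was searched as CANNTG and the GC box as GGGCGG. The CCAAT box was searched by its 5 letters. The cAMP response element was searched as TGACGTCA.
COL4A2 and COL4A1, chr13:110307158-110307283, plus strand: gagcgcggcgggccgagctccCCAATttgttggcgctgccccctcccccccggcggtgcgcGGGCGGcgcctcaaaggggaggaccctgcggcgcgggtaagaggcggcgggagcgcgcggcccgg
FN1, chr2:215436069-215436318, minus strand: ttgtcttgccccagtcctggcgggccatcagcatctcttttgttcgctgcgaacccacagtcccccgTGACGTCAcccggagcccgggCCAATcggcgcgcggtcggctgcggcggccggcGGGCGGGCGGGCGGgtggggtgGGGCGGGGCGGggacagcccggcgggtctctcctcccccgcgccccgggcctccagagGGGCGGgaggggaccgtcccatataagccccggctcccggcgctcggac
FBN2, chr5:128538246-128538495, minus strand: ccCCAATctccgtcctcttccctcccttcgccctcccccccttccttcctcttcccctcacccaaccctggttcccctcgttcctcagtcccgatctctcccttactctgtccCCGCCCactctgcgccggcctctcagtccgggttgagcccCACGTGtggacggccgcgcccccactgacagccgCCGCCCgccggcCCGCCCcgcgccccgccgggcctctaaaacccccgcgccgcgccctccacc
PAPLN, chr14:73237256-73237505, plus strand: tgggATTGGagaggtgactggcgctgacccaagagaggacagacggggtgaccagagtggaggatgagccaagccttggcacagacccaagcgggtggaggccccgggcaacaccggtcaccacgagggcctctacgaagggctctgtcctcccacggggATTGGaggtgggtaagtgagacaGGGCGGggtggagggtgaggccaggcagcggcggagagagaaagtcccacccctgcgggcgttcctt
The shared type IV collagen stretch is 126 bases long with 80.2% G and C. It holds 1 GC box, 1 CCAAT box and 0 E-boxes, and 39.0% of 27305 promoter windows of that length hold an E-box. The FN1 window holds 6 GC boxes, some of them overlapping, 1 CCAAT box, 1 cAMP response element and 0 E-boxes. In FBN2 there are 3 GC boxes, 1 CCAAT box and 1 E-box, which reads CACGTG, and in PAPLN 1 GC box, 2 CCAAT boxes and 0 E-boxes. Of all 27305 promoters with 250 bases, 62.2% hold an E-box, 42.3% a GC box, 33.0% a CCAAT box and 1.8% the cAMP response element. Of the 48 members with a promoter entry, 41.7% hold an E-box and 70.8% a GC box. These matches describe the letters in the windows and say nothing of which factor binds there.

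The libraries summed to between 577716 and 734958 FPKM, and replicates correlated across genes at r = 0.970 to 0.989. TCF3 did not read as lost in the libraries labelled knockout. It stood at 146 and 148 FPKM there at day 3, against 179.5 and 149 FPKM in wild type. At day 7 the libraries labelled knockout had 179.9 and 172 FPKM, those of wild type 135 and 138 FPKM. At day 15 the libraries labelled knockout had 169.7 and 108 FPKM, those of wild type 74.4 and 98.2 FPKM. The log2 changes were -0.15 (adjusted p = 0.618), 0.36 (adjusted p = 0.159) and 0.66 (adjusted p = 0.0234), so no fall of the targeted mRNA passed, and every direction below rests on the labels. The rise at day 15 ended without labelled knockout replicate 1 (0.34) or wild-type replicate 1 (0.46). Cardiomyocyte markers summed to 1121 to 1238 FPKM under the knockout label at day 7, against 6548 to 6562 FPKM in wild type, and to 3231 to 3970 against 9289 to 10185 FPKM at day 15. At day 3 they summed to 4.67 to 7.09 FPKM under the knockout label, against 6.45 to 7.96 FPKM in wild type. All 8 were lower at day 7, while 4 were lower and 1 higher at day 15, beside 42% and 35.1% of all genes called. MYL7 made up most of the gap at day 15, at 1350 and 1204 FPKM under the knockout label, against 5961 and 6584 FPKM in wild type. MYH6 ran the other way at that day, at 959 and 786 FPKM against 632 and 702 FPKM. The markers of the labelled cell type were thus present in both genotypes at day 15. In bulk libraries, fewer cells of a type and less RNA per cell cannot be told apart. Mitochondrially encoded genes held 17.36% to 20.22% of summed FPKM under the knockout label at days 3 and 7, against 8.14% to 16.9% in wild type, and 13.86% to 14.32% against 26.07% to 26.18% at day 15.

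The summed level of the matrix genes was lower under the knockout label at each day. At day 3 the 61 genes summed to 2414 and 2287 FPKM in the libraries labelled knockout, against 4297 and 4226 FPKM in wild type. At day 7 the sums were 4246 and 3760 FPKM under the knockout label, against 6563 and 6665 FPKM in wild type. At day 15 they were 4221 and 3348 FPKM under the knockout label, against 4837 and 5024 FPKM in wild type. The genotypes did not overlap at any day, and the gap was smallest at day 15, when the 2 libraries labelled knockout also lay farthest apart. The gap at day 15 rested on FN1, which was left out in turn after its values were seen. Without it the sums were 3816 and 2983 FPKM under the knockout label, against 3561 and 3778 FPKM in wild type, which overlap. Without FN1 the genotypes still did not overlap at day 3, with 2296 and 2157 FPKM under the knockout label, against 3864 and 3805 FPKM in wild type, or at day 7, with 3737 and 3279 FPKM under the knockout label, against 5159.7 and 5240.3 FPKM in wild type. SPARC, COL6A1 and FBLN1, a calcium-binding fibulin, were the top 3 members in the labelled knockout libraries at day 3, while FN1 took the place of FBLN1 in wild type. FN1 held 4.87% and 5.7% of the member sum under the knockout label at day 3, against 10.07% and 9.96% in wild type. At day 15 its share was 9.6% and 10.88% under the knockout label, against 26.37% and 24.8% in wild type.

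**Figure D1:**
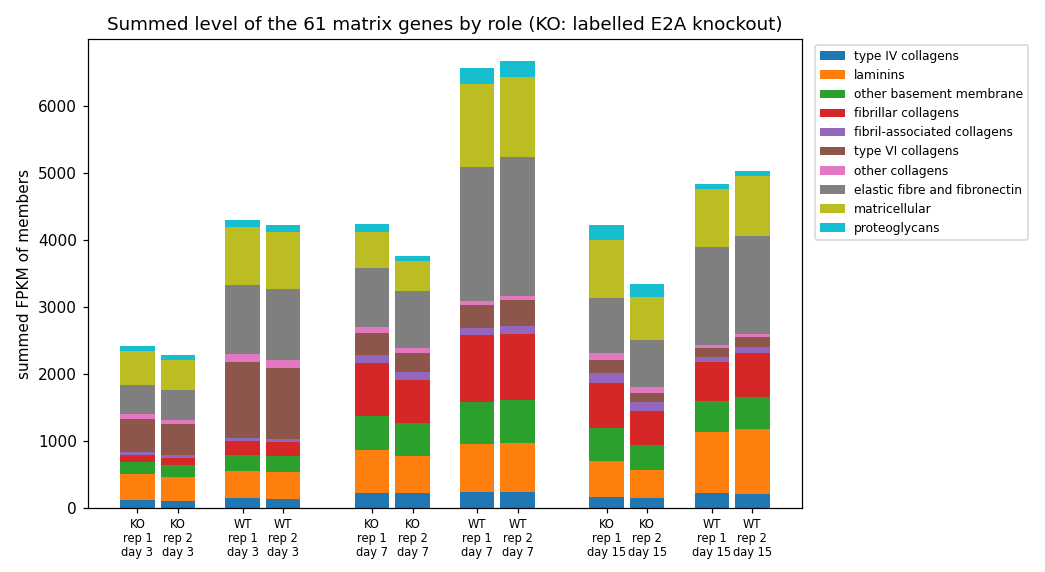
Summed FPKM of the 61 matrix genes in each of the 12 libraries, stacked by role, with the 2 libraries labelled knockout left of the 2 wild-type libraries at each day. At day 3 the bars labelled knockout reach 2414 and 2287 FPKM, below the wild-type bars at 4297 and 4226 FPKM.

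The first comparison asked which matrix genes differed between the genotypes at each day. At day 3, 22 of the 61 members were lower and 7 higher in the libraries labelled knockout, while 23.6% of all genes tested passed in either direction (9.51% higher and 14.1% lower). At day 7, 19 were lower and 14 higher, beside 42% of all genes (22.1% higher and 19.9% lower). At day 15, 13 were lower and 20 higher, beside 35.1% of all genes (18.9% higher and 16.2% lower). The members passed more often than genes at large at each day, and the balance moved from mostly lower to mostly higher. Their median log2 change was -0.25 at day 3, -0.16 at day 7 and 0.00 at day 15, where all genes had -0.01, 0.06 and 0.03. These are differences of log2(FPKM + 1), a scale that understates genes at low levels, and a gene passed at an adjusted p under 0.05 with limma. The count of higher members at day 3 was smaller whichever library of that day was left out, which leaves 1 library in a group. The 14 at day 7 became 9 without wild-type replicate 1. Scaled to the sum of nuclear genes, day 3 had 11 higher and 20 lower members, day 7 had 16 and 17, and the median of all genes moved to 0.12 and 0.22.

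The second comparison followed each genotype over time. From day 3 to day 7, 39 members rose and 8 fell in the libraries labelled knockout, where 28.6% of all genes passed (17.3% up and 11.4% down). In wild type 33 rose and 9 fell, where 43.7% passed (21.1% up and 22.6% down). From day 7 to day 15, 16 rose and 24 fell under the knockout label, where 28.4% of all genes passed (13.3% up and 15.1% down). In wild type 15 rose and 29 fell, where 52.3% passed (25.5% up and 26.8% down). Matrix genes thus rose in both genotypes in the earlier interval and more of them fell than rose in the later one. The median member changed by 0.88 and then by -0.31 under the knockout label, and by 0.48 and then by -0.36 in wild type. Over all genes these medians were 0.06 and -0.03 under the knockout label, and -0.03 and 0.01 in wild type. Scaled to nuclear genes, wild type had 17 rises and 26 falls after day 7, and its median over all genes moved to 0.17.

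**Figure D2:**
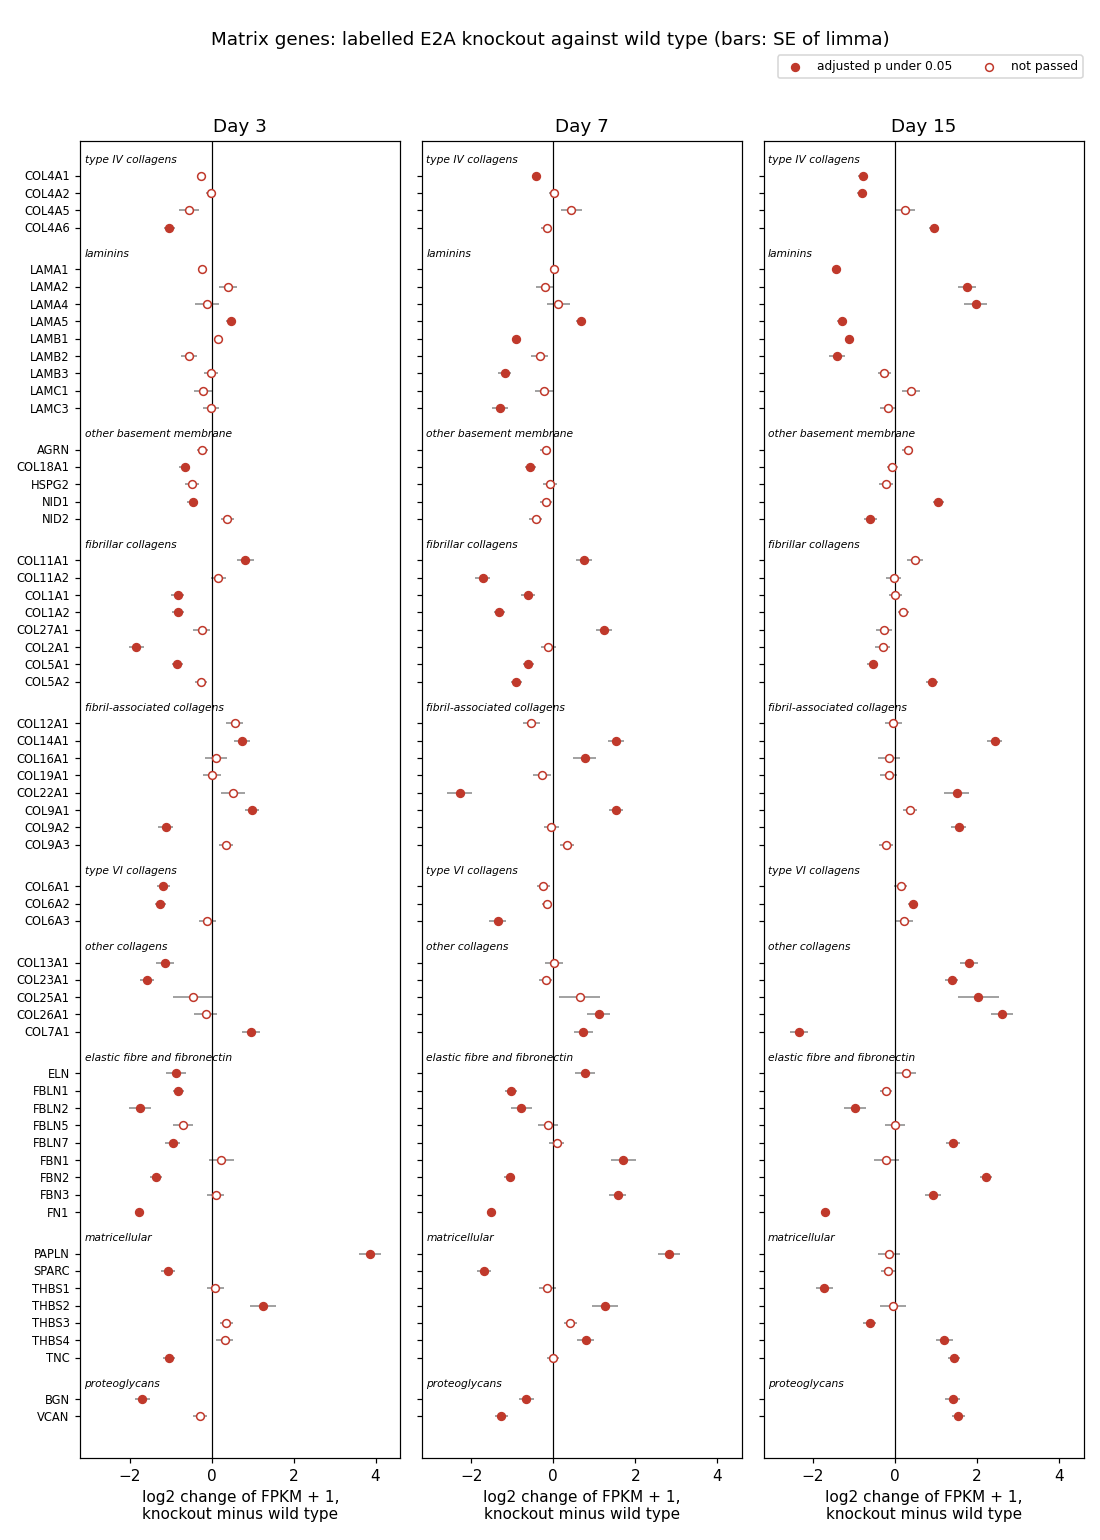
Log2 change of FPKM + 1 for 60 of the 61 matrix genes, libraries labelled knockout minus wild type, at days 3, 7 and 15, grouped by role. Points are changes with the SE of limma as bars, and filled points passed an adjusted p of 0.05, with 7 higher members at day 3, and 13 lower and 20 higher at day 15.

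Of the basement membrane genes, 4 type IV collagen chains, 10 laminin chains and 5 others were members. Of these 19, 4 were lower and 1 higher at day 3, and 5 were lower and 1 higher at day 7. At day 15, 7 were lower and 4 higher in the libraries labelled knockout. The shares that passed were 26.3%, 31.6% and 57.9%, beside 23.6%, 42% and 35.1% of all genes, so the share was near that of all genes at day 3, below it at day 7 and above it at day 15. Without wild-type replicate 2 of day 7 the 5 lower genes of that day became 3, and without any day 3 library but labelled knockout replicate 2 the higher gene of day 3 ended. From day 3 to day 7, 13 of the 19 rose in each genotype, with 3 falls under the knockout label and 1 in wild type. The median of the 19 was -0.23, -0.20 and -0.22 on the log2 scale at days 3, 7 and 15.

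COL4A1 (chromosome 13, 110148963 to 110307233, minus strand) and COL4A2 (chromosome 13, 110305812 to 110513209, plus strand) encode the chains of the common type IV collagen network. In the libraries labelled knockout COL4A1 stood at 33.9 and 28.6 FPKM at day 3, 50.04 and 49.8 FPKM at day 7 and 38.3 and 35.4 FPKM at day 15. In wild type it stood at 37.8 and 37.0 FPKM at day 3, 67.1 and 66.3 FPKM at day 7 and 65.0 and 63.5 FPKM at day 15. COL4A2 stood at 40.0 and 42.7 FPKM at day 3, 77.9 and 83.1 FPKM at day 7 and 70.2 and 57.7 FPKM at day 15 under the knockout label. Wild type had 44.0 and 39.2 FPKM at day 3, 79.1 and 81.1 FPKM at day 7 and 109 and 115 FPKM at day 15. At day 15 both libraries labelled knockout lay below both wild-type libraries for each gene. The log2 change was -0.79, SE 0.11, adjusted p = 0.000439 for COL4A1 and -0.80, SE 0.12, adjusted p = 0.000599 for COL4A2. At days 3 and 7 the genotypes lay close together for COL4A2, and its changes of -0.01 and 0.01 did not pass. COL4A1 fell at day 7 (-0.41, SE 0.11, adjusted p = 0.0124), a call that ended without labelled knockout replicate 1 or 2 (-0.41 in each case), without wild-type replicate 1 (-0.40) or 2 (-0.42), and when scaled to nuclear genes (-0.21). By the GENCODE bounds the genes overlap at their starts, so reads there cannot be assigned where the strand setting is not given.

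COL4A5 and COL4A6 are a second head-to-head pair, on the X chromosome, and their chains form a separate network. COL4A6 stood at 12.7 and 14.05 FPKM at day 3, 54.6 and 49.9 FPKM at day 7 and 25.6 and 25.0 FPKM at day 15 under the knockout label. Wild type had 30.9 and 25.8 FPKM at day 3, 58.5 and 58.7 FPKM at day 7 and 12.1 and 12.9 FPKM at day 15. It was thus lower at day 3 (-1.03, SE 0.12, adjusted p = 0.000335) and higher at day 15 (0.96, SE 0.12, adjusted p = 0.000285), with no overlap of libraries at either day. At day 7 its change of -0.16 did not pass. COL4A5 stood at 40.4 and 36.0 FPKM at day 15 under the knockout label, against 40.5 and 25.0 FPKM in wild type, and did not pass at any day (-0.55, 0.44 and 0.25).

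The laminin alpha chains parted ways at day 15. LAMA1, the alpha chain of the embryonic laminin-111, stood at 33.6 and 32.7 FPKM at day 3, 119 and 111 FPKM at day 7 and 31.2 and 32.7 FPKM at day 15 under the knockout label. Wild type had 39.6 and 38.8 FPKM at day 3, 116 and 109.8 FPKM at day 7 and 84.0 and 91.8 FPKM at day 15. Both genotypes shared the rise to day 7, with log2 changes of 1.76 under the knockout label and 1.502 in wild type. From day 7 to day 15 LAMA1 fell by 1.81 under the knockout label, and at day 15 it was lower than in wild type (-1.43, SE 0.10, adjusted p = 6.87e-06). LAMA5, the alpha chain of epithelial and endothelial laminins and of the laminins that support stem cells in culture, rose late in wild type. It stood at 55.3 and 50.2 FPKM at day 3, 81.1 and 89.9 FPKM at day 7 and 65.2 and 72.0 FPKM at day 15 under the knockout label. Wild type had 39.3 and 36.7 FPKM at day 3, 48.9 and 58.0 FPKM at day 7 and 163 and 174 FPKM at day 15. It was higher under the knockout label at day 7 (0.67, SE 0.12, adjusted p = 0.00142) and lower at day 15 (-1.29, SE 0.12, adjusted p = 4.17e-05), after a rise of 1.65 between those days in wild type. Its rise at day 3 (0.46, SE 0.12, adjusted p = 0.0191) ended without labelled knockout replicate 1 (0.39) and without wild-type replicate 1 (0.51) or 2 (0.41). LAMA5 overlaps ADRM1 in the annotation, and reads of the overlap are uncertain.

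LAMA4 and LAMA2, the alpha chains of vessel walls and of muscle, were low until day 7. LAMA4 stood at 19.0 and 16.1 FPKM at day 15 in the libraries labelled knockout, against 5.39 and 2.50 FPKM in wild type (1.97, SE 0.29, adjusted p = 0.000565). LAMA2 stood at 8.08 and 7.16 FPKM under the knockout label, against 1.84 and 1.27 FPKM in wild type (1.76, SE 0.21, adjusted p = 0.000196). Neither chain overlapped between the genotypes at day 15, and neither passed at day 3 or 7. At day 15, 4 of the 6 endothelial markers tested were higher and none lower under the knockout label. At day 7, when neither chain passed, 4 of the 6 were lower and none higher. The sum of these markers at day 15 was 41.7 to 50.3 FPKM under the knockout label, against 20.5 to 25.1 FPKM in wild type. At day 7 it was 38.3 to 39.3 FPKM under the knockout label, against 81.5 to 84.1 FPKM in wild type. The defining marker CDH5 stood at 7.14 and 6.20 FPKM at day 15 under the knockout label, against 2.41 and 2.04 FPKM in wild type. The part of endothelial cells in the result was not tested.

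The beta chains LAMB1 and LAMB2 were lower at day 15, and LAMC1, the main gamma chain, did not pass. LAMB1 stood at 101.3 and 102 FPKM at day 3, 108 and 110.4 FPKM at day 7 and 117 and 117 FPKM at day 15 under the knockout label. Wild type had 98.3 and 84.0 FPKM at day 3, 204 and 210.3 FPKM at day 7 and 264 and 250.01 FPKM at day 15. It was almost flat under the knockout label, with log2 changes of 0.11 and 0.10 between neighbouring days that did not pass, while it rose by 1.18 to day 7 in wild type. LAMB1 was lower at day 7 (-0.92, SE 0.10, adjusted p = 6.85e-05) and at day 15 (-1.13, SE 0.10, adjusted p = 2.99e-05). LAMB2, the beta chain of mature muscle and vessel laminins, stood at 163 and 101.4 FPKM at day 15 under the knockout label, against 315 and 371 FPKM in wild type (-1.40, SE 0.20, adjusted p = 0.000457). Neither earlier day passed for LAMB2 (-0.54 and -0.33). LAMC1, the gamma chain of most laminins, stood at 117 and 68.9 FPKM at day 15 under the knockout label, against 72.2 and 64.2 FPKM in wild type, and its changes of -0.21, -0.22 and 0.40 did not pass. LAMB1 overlaps DLD in the annotation. LAMB3 and LAMC3 are given further on.

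Nidogens, which link laminin to type IV collagen, moved in opposite directions at day 15. NID1 stood at 23.3 and 18.7 FPKM under the knockout label at day 15, against 9.28 and 9.71 FPKM in wild type, and was higher (1.06, SE 0.14, adjusted p = 0.000321). At day 3 NID1 stood at 14.7 and 13.3 FPKM, against 19.5 and 19.8 FPKM in wild type, a fall (log2 change -0.46, SE 0.14, adjusted p = 0.0361) that ended without labelled knockout replicate 1 (-0.53) or 2 (-0.39), without wild-type replicate 1 (-0.47) or 2 (-0.45), and when scaled to nuclear genes (-0.29). NID2 was the member of this class that rose most from day 3 to day 7, by 2.63 under the knockout label and 3.45 in wild type. At day 15 NID2 stood at 119.9 and 86.0 FPKM, against 163 and 145 FPKM in wild type, a fall (log2 change -0.60, SE 0.16, adjusted p = 0.0159) that ended without labelled knockout replicate 2 (-0.36) or wild-type replicate 1 (-0.51).

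Of the proteoglycans of the basement membrane, COL18A1 passed between the genotypes, while AGRN and HSPG2 did not. AGRN, agrin, rose by 2.24 from day 3 to day 7 under the knockout label and by 2.20 in wild type, and stood at 179 and 197 FPKM at day 7, against 211 and 217 FPKM. HSPG2, perlecan, stood at 33.3 and 33.6 FPKM at day 3 under the knockout label, against 45.4 and 48.5 FPKM in wild type, with no overlap of libraries. At day 7 HSPG2 stood at 64.5 and 60.1 FPKM under the knockout label, against 65.0 and 66.6 FPKM in wild type. Neither passed between the genotypes at any day, with changes of -0.23, -0.19 and 0.31 for AGRN and -0.48, -0.08 and -0.22 for HSPG2. COL18A1, whose C-terminal fragment is endostatin, stood at 76.9 and 74.4 FPKM at day 3 under the knockout label, against 118 and 121 FPKM in wild type (-0.65, SE 0.13, adjusted p = 0.00585). Its fall at day 7 (-0.56) ended without labelled knockout replicate 2 (-0.48) or wild-type replicate 2 (-0.51), and its change of -0.06 at day 15 did not pass. HSPG2 and COL18A1 each overlap another listed gene.

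**Figure D3:**
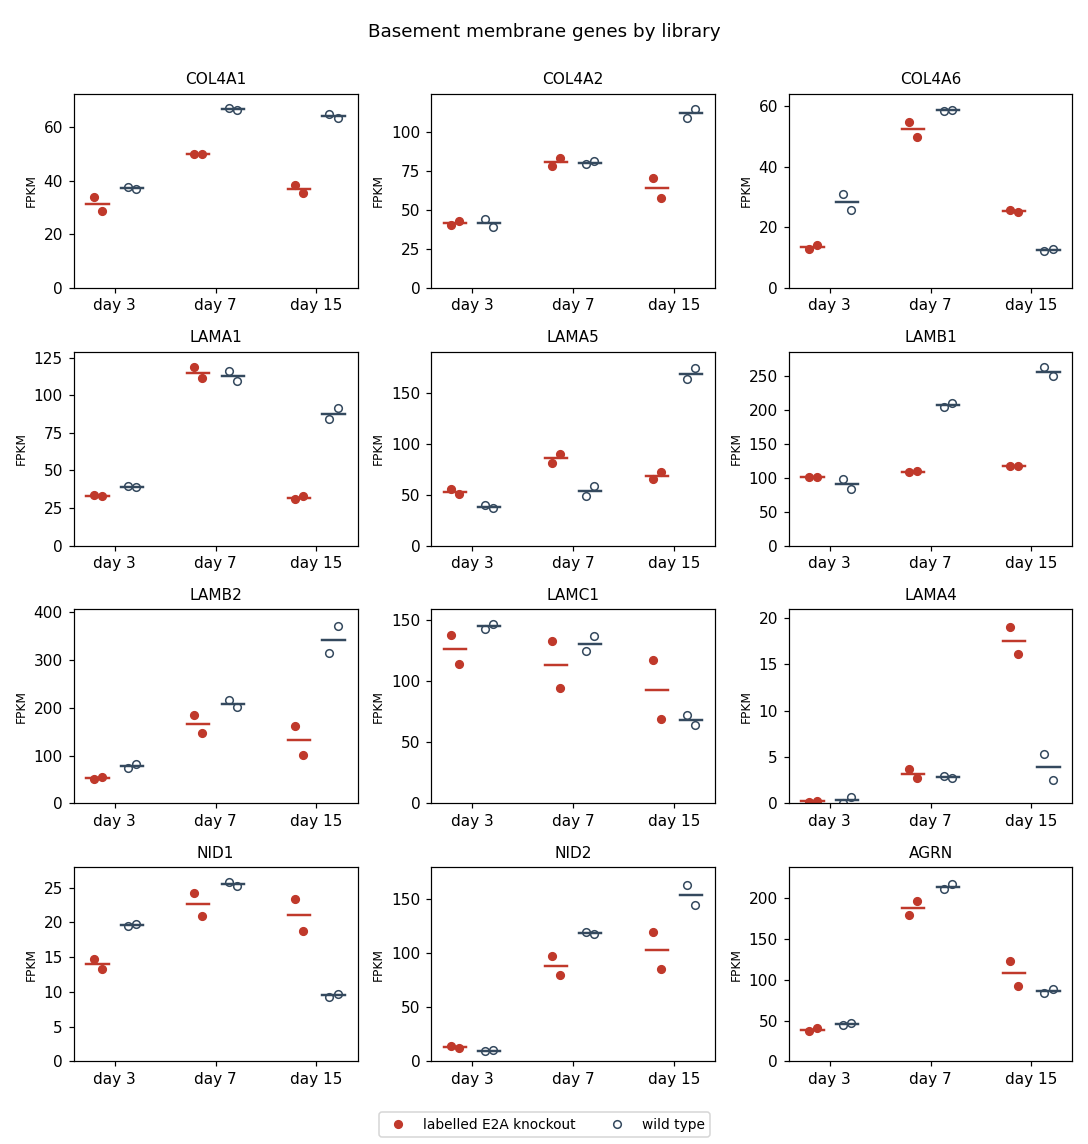
FPKM of 12 basement membrane genes in each library at days 3, 7 and 15, with filled points for libraries labelled knockout, open points for wild type and lines for the means of 2 libraries. LAMA1, LAMA5, LAMB1 and LAMB2 lie below wild type at day 15 in both libraries labelled knockout, while LAMA4 and NID1 lie above it.

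More fibrillar collagens were lower than higher at days 3 and 7. Of 8 members, 4 were lower and 1 higher at day 3, 5 lower and 2 higher at day 7, and 1 lower and 1 higher at day 15. The shares that passed were 62.5%, 87.5% and 25% at these days, beside 23.6%, 42% and 35.1% of all genes. All 8 rose from day 3 to day 7 under the knockout label, or 5 without labelled knockout replicate 1 of day 7, and 6 did in wild type. Their median log2 change between genotypes was -0.54 at day 3, -0.62 at day 7 and -0.01 at day 15.

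COL1A1 (chromosome 17, 50183289 to 50201632, minus strand) and COL1A2 (chromosome 7, 94394561 to 94431232, plus strand) encode the chains of type I collagen, the main collagen of interstitial matrix. COL1A1 stood at 12.1 and 13.5 FPKM at day 3, 290.0 and 227 FPKM at day 7 and 147 and 107 FPKM at day 15 under the knockout label. Wild type had 22.8 and 24.4 FPKM at day 3, 405 and 385 FPKM at day 7 and 115 and 135 FPKM at day 15. It peaked at day 7 in both genotypes, with rises of 4.22 under the knockout label and 4.01 in wild type since day 3. It was lower under the knockout label at day 3 (-0.83, SE 0.16, adjusted p = 0.00517). Its fall at day 7 (-0.62, SE 0.16, adjusted p = 0.0119) ended without labelled knockout replicate 2 (-0.44) or wild-type replicate 1 (-0.59). COL1A2 stood at 52.2 and 39.9 FPKM at day 3, 69.6 and 65.6 FPKM at day 7 and 136 and 118 FPKM at day 15 under the knockout label. Wild type had 81.0 and 81.3 FPKM at day 3, 174 and 165 FPKM at day 7 and 101.1 and 119 FPKM at day 15. It was lower at day 3 (-0.82, SE 0.14, adjusted p = 0.00239) and at day 7 (-1.32, SE 0.14, adjusted p = 5.97e-05), without overlap at either day. At day 15 the changes of 0.01 for COL1A1 and 0.20 for COL1A2 did not pass.

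COL2A1, the collagen of cartilage and of several embryonic epithelia, had the lowest change of all members at day 3. It stood at 12.5 and 10.2 FPKM under the knockout label there, against 41.4 and 44.2 FPKM in wild type (-1.83, SE 0.18, adjusted p = 0.000109). At day 7 it stood at 362 and 272 FPKM under the knockout label, against 334 and 351 FPKM in wild type, and at day 15 at 291 and 204 FPKM, against 281 and 319 FPKM. The changes of -0.12 and -0.30 did not pass, and the shift of the genotype effect between days 3 and 7 did (1.71, SE 0.26, adjusted p = 0.00157).

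COL5A1 and COL5A2 encode type V collagen, which starts and limits fibrils of type I. COL5A1 stood at 20.6 and 19.6 FPKM at day 3, 29.1 and 26.9 FPKM at day 7 and 36.9 and 29.1 FPKM at day 15 under the knockout label. Wild type had 37.1 and 36.3 FPKM at day 3, 43.3 and 43.4 FPKM at day 7 and 44.9 and 51.4 FPKM at day 15. It was lower at all 3 days, with log2 changes of -0.84, -0.61 and -0.54. The call at day 15 ended without wild-type replicate 2 (-0.44), and also when the groups of that day were fitted alone (-0.54). COL5A2 was lower at day 7 and higher at day 15. It stood at 10.1 and 10.1 FPKM under the knockout label against 19.2 and 20.3 FPKM in wild type at day 7 (-0.90, SE 0.14, adjusted p = 0.00068), and at 20.4 and 17.0 FPKM against 9.77 and 9.28 FPKM at day 15 (0.90, SE 0.14, adjusted p = 0.000876). COL11A2, a chain of the cartilage type XI collagen, stood at 3.303 and 2.50 FPKM at day 7 under the knockout label, against 11.5 and 12.1 FPKM in wild type (-1.72, SE 0.19, adjusted p = 6.69e-05), and did not pass at the other days.

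Type VI collagen forms beaded filaments near cell surfaces, and its chains COL6A1 and COL6A2 were highest at day 3 in wild type. COL6A1 stood at 354 and 332 FPKM at day 3, 196 and 169 FPKM at day 7 and 104 and 71.6 FPKM at day 15 under the knockout label. Wild type had 792 and 760.5 FPKM at day 3, 199.9 and 233 FPKM at day 7 and 76.2 and 80.1 FPKM at day 15. COL6A2, its neighbour on chromosome 21, stood at 133 and 139 FPKM at day 3 under the knockout label, against 342 and 307 FPKM in wild type. Both were lower at day 3 with no overlap of libraries, and the log2 change was -1.18, SE 0.16, adjusted p = 0.00068 for COL6A1 and -1.25, SE 0.12, adjusted p = 0.000108 for COL6A2. COL6A3, on chromosome 2, ran the other way, with rises to day 7 of 1.16 under the knockout label and 2.41 in wild type. It differed between the genotypes at day 7, at 2.16 and 1.55 FPKM under the knockout label against 6.89 and 5.69 FPKM in wild type (-1.36, SE 0.21, adjusted p = 0.000574). At day 15 COL6A2 stood at 68.8 and 55.3 FPKM, against 42.9 and 48.0 FPKM in wild type, a rise of 0.43 that ended without labelled knockout replicate 1 (0.28) or wild-type replicate 1 (0.36). COL6A1 and COL6A3 did not pass at that day (0.15 and 0.22).

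**Figure D4:**
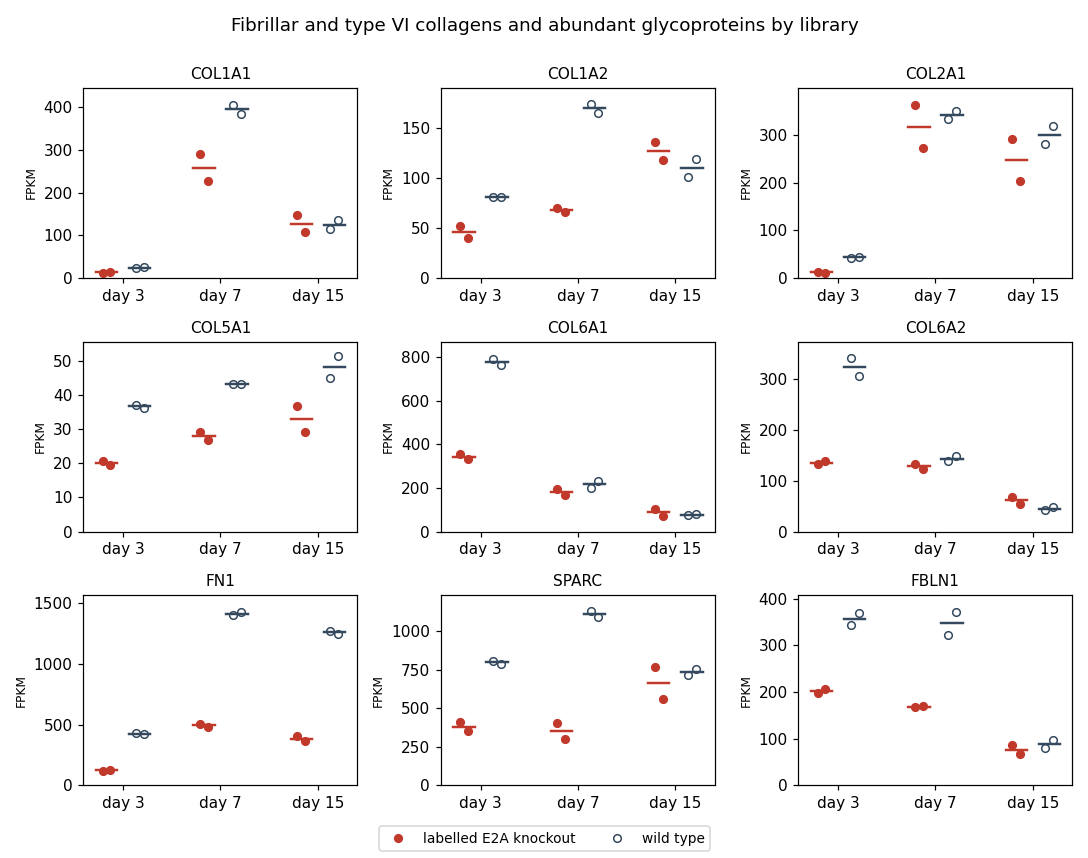
FPKM of 9 fibrillar, type VI and abundant glycoprotein genes in each library at days 3, 7 and 15, with filled points for libraries labelled knockout, open points for wild type and lines for the means of 2 libraries. FN1 lies below wild type in both libraries labelled knockout at all 3 days, while COL1A1, COL1A2 and SPARC overlap wild type at day 15.

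Fibril-associated collagens, which decorate fibrils and do not form them, had 2 higher and 1 lower of 8 members at day 3. They had 3 higher and 1 lower at day 7 and 3 higher at day 15. These are 37.5%, 50% and 37.5% of the 8, beside 23.6%, 42% and 35.1% of all genes. The shares at days 7 and 15 were near those of all genes. COL14A1, which binds fibrils in skin and tendon, was higher at all 3 days. It stood at 3.35 and 3.03 FPKM at day 3, 6.14 and 5.11 FPKM at day 7 and 5.18 and 6.25 FPKM at day 15 under the knockout label. Wild type had 1.48 and 1.53 FPKM at day 3, 0.987 and 1.64 FPKM at day 7 and 0.267 and 0.219 FPKM at day 15. The changes were 0.74, 1.53 and 2.43, and the call at day 3 ended when any of the 4 libraries of that day was left out. The change there was 0.69 and 0.80 without labelled knockout replicates 1 and 2, and 0.73 and 0.76 without wild-type replicates 1 and 2. COL22A1, found at tissue junctions such as that of muscle and tendon, came later under the knockout label. It stood at 7.28 and 4.32 FPKM at day 7 under the knockout label, against 30.6 and 32.0 FPKM in wild type (-2.28, SE 0.30, adjusted p = 0.000214), and at 83.4 and 66.6 FPKM at day 15, against 23.2 and 28.3 FPKM (1.503, SE 0.30, adjusted p = 0.00326). Of the type IX chains, partners of type II collagen, COL9A1 was higher at day 3 (0.99) and day 7 (1.53), and COL9A2 was lower at day 3 (-1.12) and higher at day 15 (1.56). COL9A1 stood at 10.4 and 10.6 FPKM at day 7 under the knockout label, against 2.92 and 3.06 FPKM in wild type, and COL9A2 at 10.5 and 9.17 FPKM at day 15, against 2.49 and 2.88 FPKM. COL16A1, a minor fibril-associated chain, stood at 4.55 and 2.26 FPKM at day 7 under the knockout label, against 1.604 and 1.41 FPKM in wild type. Its rise of 0.77 ended without labelled knockout replicate 1 (0.38) and without wild-type replicate 1 (0.82) or 2 (0.71).

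Of the 5 remaining collagens, 1 was higher and 2 lower at day 3, 2 were higher and 0 lower at day 7, and 4 were higher and 1 lower at day 15. These are 60%, 40% and 100% of the 5, beside 23.6%, 42% and 35.1% of all genes. The share at day 7 was near that of all genes. COL7A1, the anchoring fibril collagen of stratified epithelia, stood at 7.18 and 5.64 FPKM at day 15 under the knockout label, against 35.6 and 36.9 FPKM in wild type (-2.34, SE 0.22, adjusted p = 4.53e-05). It rose by 3.70 from day 7 to day 15 in wild type, while its change of 0.63 under the knockout label did not pass. At days 3 and 7 COL7A1 was higher, by 0.97 and 0.74, at levels of 5.26 and 4.98 FPKM under the knockout label against 2.45 and 1.84 FPKM in wild type and of 2.78 and 4.99 FPKM against 1.76 and 1.96 FPKM. The call at day 3 ended without labelled knockout replicate 1 (0.93) or wild-type replicate 2 (0.83), and that at day 7 without labelled knockout replicate 2 (0.41) or wild-type replicate 1 (0.69) or 2 (0.79). COL26A1, a short secreted collagen, stood at 84.9 and 48.7 FPKM at day 15 under the knockout label, against 9.97 and 9.40 FPKM in wild type (2.61, SE 0.27, adjusted p = 8.48e-05). At day 7 it stood at 62.3 and 45.4 FPKM, against 23.4 and 24.9 FPKM in wild type, a rise of 1.11 that ended without labelled knockout replicate 1 (0.88).

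Among these 5, COL13A1 and COL23A1, which span the cell membrane, turned round between days. COL13A1, found at cell adhesions and neuromuscular junctions, stood at 35.0 and 36.6 FPKM at day 3 under the knockout label, against 82.2 and 77.4 FPKM in wild type (-1.13, SE 0.22, adjusted p = 0.00435), and at 13.1 and 11.6 FPKM at day 15, against 1.90 and 3.98 FPKM (1.81, SE 0.22, adjusted p = 0.000182). COL23A1 stood at 3.70 and 3.73 FPKM at day 3 under the knockout label, against 14.8 and 11.5 FPKM in wild type (-1.58, SE 0.16, adjusted p = 0.000113), and at 5.26 and 5.75 FPKM at day 15, against 1.48 and 1.48 FPKM (1.39, SE 0.16, adjusted p = 0.000141). Neither passed at day 7. COL25A1, also a membrane collagen and known as a component of brain amyloid plaques, stood at 2.58 and 11.5 FPKM at day 15 under the knockout label, against 0.520 and 0.750 FPKM in wild type. Its rise of 2.03 ended without wild-type replicate 1 (1.93), and its 2 libraries labelled knockout lay far apart.

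FN1 (chromosome 2, 215360440 to 215436172, minus strand), fibronectin, was the most abundant member in wild type at days 7 and 15 and was lower under the knockout label at all 3 days. It stood at 118 and 130.3 FPKM at day 3 under the knockout label, against 433 and 421 FPKM in wild type. At day 7 it stood at 508 and 481 FPKM under the knockout label, against 1403 and 1425 FPKM in wild type. At day 15 it stood at 405 and 364 FPKM under the knockout label, against 1275 and 1246 FPKM in wild type. The highest library labelled knockout was well below the lowest wild-type library at each day, and the log2 changes were -1.78, -1.51 and -1.71 with an SE of 0.10 (adjusted p = 3.82e-06, 3.26e-06 and 1.99e-06). Both genotypes shared the rise to day 7, by 1.99 under the knockout label and 1.73 in wild type. The genotype effect did not pass as different between neighbouring days (0.26 and -0.20, adjusted p = 0.206 and 0.303).

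The fibrillins, which form the microfibrils that carry elastin and store growth factors, each had a pattern of their own. FBN2 (chromosome 5, 128257909 to 128659185, minus strand), the fetal fibrillin, stood at 57.9 and 47.2 FPKM at day 3 under the knockout label, against 130.2 and 141 FPKM in wild type, and at 92.8 and 78.4 FPKM at day 7, against 184 and 174 FPKM. At day 15 it stood at 268 and 219.6 FPKM under the knockout label, against 52.6 and 49.7 FPKM in wild type. It was lower at the earlier days (-1.36, SE 0.14, adjusted p = 0.000119 and -1.06, SE 0.14, adjusted p = 0.000218) and higher at day 15 (2.22, SE 0.14, adjusted p = 3.65e-06), with no overlap at any day. Between days 7 and 15 it rose by 1.497 under the knockout label and changed by -1.79 in wild type, which passed as a fall. FBN1, the main fibrillin of adult tissue, stood at 19.4 and 17.2 FPKM at day 7 under the knockout label, against 4.23 and 5.64 FPKM in wild type (1.71, SE 0.30, adjusted p = 0.00139), and did not pass at day 3 (0.23) or day 15 (-0.21). FBN3, expressed mainly before birth, stood at 37.2 and 46.4 FPKM at day 7 under the knockout label, against 12.1 and 14.6 FPKM in wild type (1.57, SE 0.20, adjusted p = 0.000203). At day 15 FBN3 was higher by 0.93, a call that ended without wild-type replicate 1 (0.69). FBN2 overlaps SLC27A6 in the annotation.

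Of the other elastic fibre genes, FBLN2, a fibulin of heart valves and vessel walls, was lower at all 3 days. It stood at 20.8 and 19.3 FPKM at day 3, 31.9 and 37.1 FPKM at day 7 and 20.3 and 9.16 FPKM at day 15 under the knockout label. Wild type had 67.3 and 71.5 FPKM at day 3, 57.2 and 62.4 FPKM at day 7 and 26.1 and 29.6 FPKM at day 15. The log2 change at day 3 was -1.74, SE 0.26, adjusted p = 0.00119. That at day 7 (-0.78) ended without labelled knockout replicate 1 (-0.67) or 2 (-0.89), without wild-type replicate 1 (-0.84) or 2 (-0.72), and when scaled to nuclear genes (-0.58). That at day 15 (-0.97) ended without wild-type replicate 2 (-0.88), and also when the groups of that day were fitted alone (-0.97). FBLN7, a fibulin that binds cells and other matrix proteins, stood at 3.35 and 5.24 FPKM at day 3 under the knockout label, against 9.69 and 8.50 FPKM in wild type (-0.95), and at 6.03 and 5.67 FPKM at day 15, against 1.57 and 1.57 FPKM (1.42). Both of these changes passed. ELN, elastin, stood at 5.06 and 5.95 FPKM at day 3 under the knockout label, against 10.8 and 10.9 FPKM in wild type, and at 3.22 and 4.18 FPKM at day 7, against 2.04 and 1.42 FPKM. Its fall at day 3 (-0.87) ended without labelled knockout replicate 1 (-0.77) or 2 (-0.97) and wild-type replicate 1 (-0.88) or 2 (-0.86). The same call ended when scaled to nuclear genes (-0.71) and with 0.1 in place of 1 added to each FPKM (-0.97). Its rise at day 7 (0.79) ended without labelled knockout replicate 2 (0.64) or wild-type replicate 2 (0.62).

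PAPLN (chromosome 14, 73237497 to 73274640, plus strand), papilin, a glycoprotein related to the ADAMTS proteases, showed the largest genotype change of the members. It stood at 34.3 and 39.5 FPKM at day 3 under the knockout label, against 1.70 and 1.52 FPKM in wild type (3.86, SE 0.27, adjusted p = 1.58e-05). At day 7 it stood at 12.3 and 14.9 FPKM under the knockout label, against 0.736 and 1.47 FPKM in wild type (2.82, SE 0.27, adjusted p = 3.36e-05). At day 15 it stood at 0.706 and 0.755 FPKM under the knockout label, against 0.429 and 1.58 FPKM in wild type, and its change of -0.15 did not pass. The wild-type libraries thus stayed under 2 FPKM throughout, and the libraries labelled knockout met them only at day 15. Of the 5 neural markers tested, 3 were higher and 2 lower at day 3, 4 higher at day 7 and 4 higher at day 15. Their sum was 334 to 347 FPKM at day 3 under the knockout label, against 384 to 391.8 FPKM in wild type, 233 to 246 against 128 to 139 FPKM at day 7, and 109 to 129.6 against 52.3 to 59.2 FPKM at day 15. Of the 3 higher at day 3, SOX21 stood at 45.2 and 44.8 FPKM under the knockout label, against 2.58 and 3.61 FPKM in wild type. The 2 lower at that day were OTX2 and TUBB3. OTX2 stood at 89.6 and 82.1 FPKM under the knockout label, against 167 and 159 FPKM in wild type. TUBB3 stood at 148 and 163 FPKM, against 220 and 219 FPKM. The part of the neural markers in the PAPLN result was not tested.

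SPARC, a collagen-binding matricellular protein, stood at 413 and 351 FPKM at day 3, 404 and 298 FPKM at day 7 and 768 and 558 FPKM at day 15 under the knockout label. Wild type had 811 and 791 FPKM at day 3, 1133 and 1092 FPKM at day 7 and 714 and 753 FPKM at day 15. It was lower at day 3 (-1.07, SE 0.17, adjusted p = 0.00159) and at day 7 (-1.68, SE 0.17, adjusted p = 4.51e-05), and the libraries of the genotypes overlapped at day 15 (-0.16, not passed). TNC, tenascin-C, a matrix protein of migrating and remodelling tissue, stood at 10.6 and 9.54 FPKM at day 3, 67.8 and 60.0 FPKM at day 7 and 28.8 and 23.2 FPKM at day 15 under the knockout label. Wild type had 23.7 and 19.8 FPKM at day 3, 63.4 and 63.9 FPKM at day 7 and 8.46 and 9.44 FPKM at day 15. It was lower at day 3 (-1.03, SE 0.15, adjusted p = 0.000805), did not differ by the test at day 7 (0.00) and was higher at day 15 (1.44, SE 0.15, adjusted p = 6.92e-05). In wild type TNC fell after day 7 by 2.70, and under the knockout label by 1.27.

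The thrombospondins, which bind calcium and several growth factors, did not move together. THBS1, an activator of TGF-beta, stood at 27.9 and 33.4 FPKM at day 15 under the knockout label, against 111 and 95.2 FPKM in wild type (-1.72, SE 0.21, adjusted p = 0.000213), with changes of 0.09 and -0.14 at the earlier days that did not pass. It rose from day 7 to day 15 by 1.21 under the knockout label and by 2.78 in wild type. THBS2, an inhibitor of vessel growth, stood at 14.4 and 13.6 FPKM at day 3 under the knockout label, against 5.38 and 5.23 FPKM in wild type, and at 0.949 and 3.45 FPKM at day 7, against 0.135 and 0.333 FPKM. Its rise at day 3 (1.25) ended without labelled knockout replicate 1 (1.21) or 2 (1.29) and without wild-type replicate 1 (1.27) or 2 (1.23). That at day 7 (1.26) ended without labelled knockout replicate 2 (0.66) or wild-type replicate 1 (1.14).

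Both proteoglycans of the interstitial matrix turned from lower to higher. VCAN (chromosome 5, 83471465 to 83582303, plus strand), versican, the large proteoglycan of the cardiac jelly, stood at 55.1 and 58.6 FPKM at day 3 under the knockout label, against 66.5 and 72.5 FPKM in wild type, and did not pass (-0.28). At day 7 it stood at 116 and 76.3 FPKM under the knockout label, against 231 and 226 FPKM in wild type, a fall (-1.27, SE 0.16, adjusted p = 0.000196). At day 15 it stood at 211 and 194 FPKM under the knockout label, against 70.4 and 67.2 FPKM in wild type, a rise (1.54, SE 0.16, adjusted p = 8.63e-05). In wild type VCAN peaked at day 7, while under the knockout label its highest values came at day 15. BGN, biglycan, a small proteoglycan that binds collagen, stood at 10.8 and 11.8 FPKM at day 3, 4.40 and 3.18 FPKM at day 7 and 14.1 and 9.97 FPKM at day 15 under the knockout label. Wild type had 38.9 and 38.4 FPKM at day 3, 6.33 and 6.62 FPKM at day 7 and 3.66 and 4.01 FPKM at day 15. It was lower at day 3 (-1.69, SE 0.18, adjusted p = 0.000184) and higher at day 15 (1.41, SE 0.18, adjusted p = 0.000306). Its fall at day 7 (-0.65) ended without labelled knockout replicate 2 (-0.47) or wild-type replicate 1 (-0.68) or 2 (-0.63). BGN overlaps HAUS7 in the annotation.

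**Figure D5:**
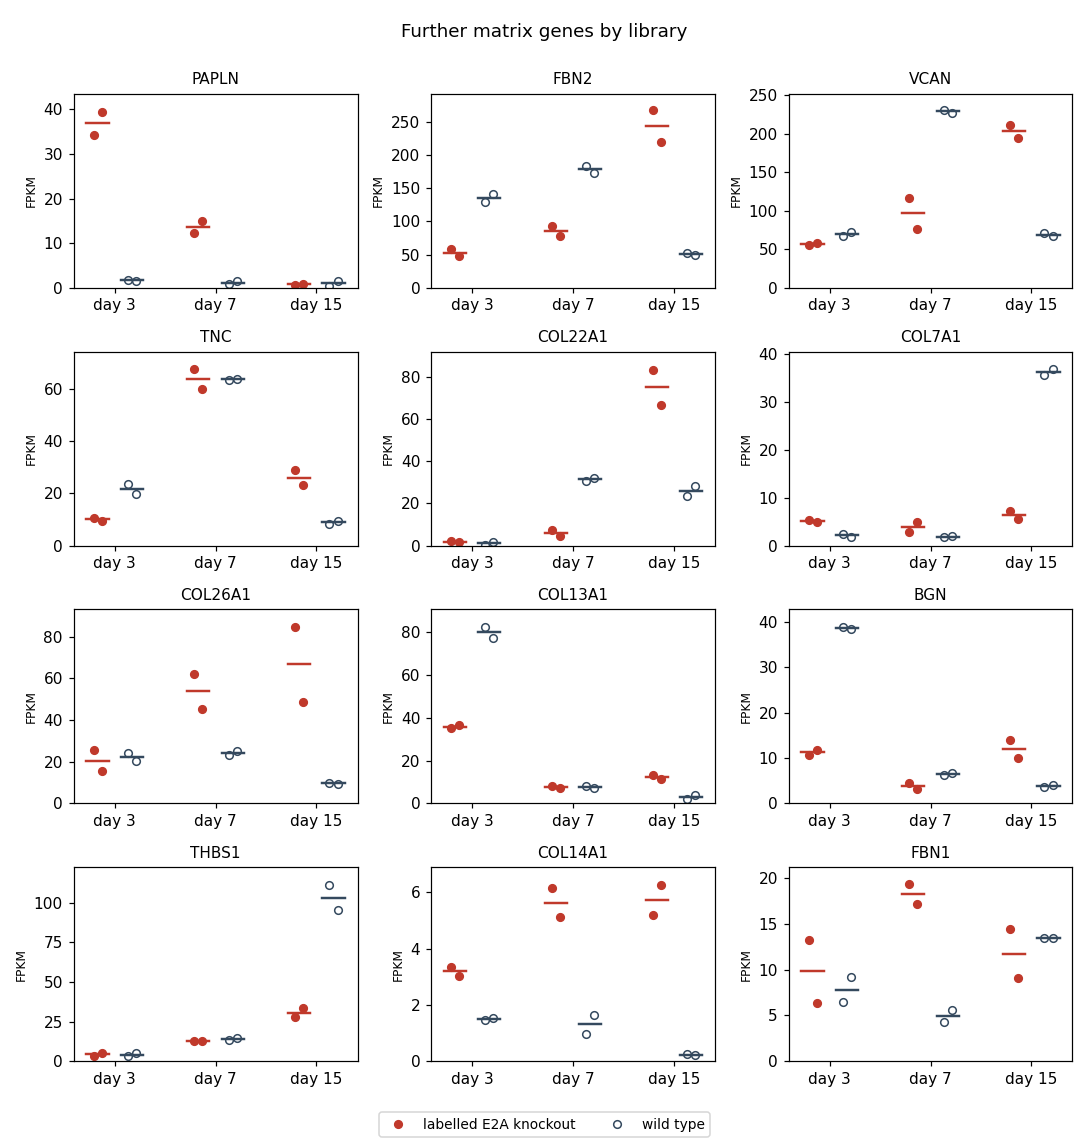
FPKM of 12 further matrix genes in each library at days 3, 7 and 15, with filled points for libraries labelled knockout, open points for wild type and lines for the means of 2 libraries. PAPLN lies above wild type at days 3 and 7, FBN2 and BGN lie below it at days 3 and 7 and above it at day 15, and COL7A1 and THBS1 lie below it at day 15.

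Set side by side, the 3 days gave each member a pattern of calls. Of the 61 members, 53 passed at 1 or more days, 8 at all 3 days and 8 at none. Such patterns were not counted over all genes, of which 23.6%, 42% and 35.1% passed at days 3, 7 and 15. Whether the members exceed genes at large in these patterns was thus not tested. FN1, FBLN2 and COL5A1 were lower at all 3 days and COL14A1 was higher. The most frequent pattern with a turn, lower at day 3, not passed at day 7 and higher at day 15, held for 8 members, among them NID1, COL4A6, COL13A1, COL23A1 and TNC. In all 16 members passed in both directions across days. The limits given above for single calls, such as that of NID1 at day 3, hold for these patterns too. The 8 that passed at no day included HSPG2, AGRN, LAMC1 and COL4A5, and a p that misses the threshold does not show that their levels are alike. The difference in genotype effect was tested between neighbouring days. Between days 3 and 7 it moved up in 15 members and down in 10, where 20.2% of all genes passed (11.3% up and 8.9% down). Between days 7 and 15 it moved up in 24 and down in 12, where 31.7% passed (16.6% up and 15.2% down), or up in 23 and down in 17 when scaled to nuclear genes, where the median of all genes moved to -0.17. The count of 25 between days 3 and 7 became 16 without wild-type replicate 1 of day 3 and 15 without that of day 7.

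The remaining 12 members lay outside the rule for named genes, and those named here were given after their values were seen. FBLN1 stood at 198 and 206 FPKM at day 3, 168 and 170.0 FPKM at day 7 and 86.1 and 67.1 FPKM at day 15 under the knockout label. Wild type had 344 and 368 FPKM at day 3, 323 and 372 FPKM at day 7 and 80.3 and 97.0 FPKM at day 15. FBLN1 was lower at day 3 (-0.82, SE 0.14, adjusted p = 0.00224) and day 7 (-1.03, SE 0.14, adjusted p = 0.000252) and overlapped at day 15. COL27A1, a fibrillar collagen of cartilage, stood at 19.9 and 23.0 FPKM at day 7 under the knockout label, against 8.85 and 8.33 FPKM in wild type (1.23, SE 0.20, adjusted p = 0.000728). COL11A1, the other type XI chain measured, was higher at days 3 and 7 (0.83 and 0.74). Those calls ended without labelled knockout replicate 2 (0.76) or wild-type replicate 1 (0.67) at day 3, and without labelled knockout replicate 1 (0.56) or wild-type replicate 1 (0.58) at day 7. THBS4, a thrombospondin of tendon and heart, stood at 8.14 and 5.85 FPKM at day 15 under the knockout label, against 3.10 and 1.86 FPKM in wild type (1.21, SE 0.21, adjusted p = 0.00148). Its rise at day 7 (0.80) ended without labelled knockout replicate 2 (0.63) or wild-type replicate 1 (0.75). THBS3 was lower at day 15 (-0.62), a call that ended without labelled knockout replicate 2 (-0.55) or wild-type replicate 2 (-0.38). The laminin chains LAMB3 and LAMC3 were low. At day 7 LAMB3, a beta chain of epithelial laminin, stood at 0.0501 and 0.252 FPKM under the knockout label, against 1.56 and 1.67 FPKM in wild type (-1.19), and LAMC3 at 1.12 and 0.736 FPKM, against 3.39 and 4.11 FPKM (-1.30). Both of these falls passed. The fibril-associated COL9A3, COL12A1 and COL19A1 and the elastic fibre protein FBLN5 passed at no day.

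The level of a chain was also set against its partner within each library, as a ratio of FPKM. COL1A1 over COL1A2 was 0.232 and 0.339 at day 3 under the knockout label, against 0.281 and 0.300 in wild type. At day 7 it was 4.17 and 3.45 under the knockout label, against 2.32 and 2.33 in wild type. At day 15 it was 1.08 and 0.914 under the knockout label, against 1.14 and 1.14 in wild type. The type I chains thus changed unequally over time in both genotypes, and the ratio at day 7 was higher in both libraries labelled knockout. NID2 over NID1 was 0.977 and 0.937 at day 3 under the knockout label, against 0.501 and 0.518 in wild type. This order was already the reverse at day 7, with 4.01 and 3.81 under the knockout label, against 4.66 and 4.68 in wild type. The gap was wider at day 15, when the ratio was 5.14 and 4.598 under the knockout label, against 17.6 and 14.9 in wild type. LAMA5 over LAMA1 was 1.65 and 1.53 at day 3 under the knockout label, against 0.993 and 0.947 in wild type, and 2.09 and 2.20 at day 15 under the knockout label, against 1.94 and 1.90 in wild type. COL4A2 over COL4A1 was 1.56 and 1.67 at day 7 under the knockout label, against 1.18 and 1.22 in wild type. By day 15 the genotypes overlapped in this ratio, with 1.83 and 1.63 under the knockout label, against 1.68 and 1.80 in wild type.

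Genes that process collagen were mostly lower at day 7. Of 19 enzymes and chaperones for collagen processing and crosslinking, 2 were higher and 4 lower at day 3, 0 higher and 13 lower at day 7, and 4 higher and 6 lower at day 15. The 6 lower became 3 without wild-type replicate 2 of day 15. At day 7 this was 68.4% of the list, beside 42% of all genes, and the median log2 change was -0.63, beside 0.06. Scaled to nuclear genes, where the median of all genes moved to 0.22, the falls of COLGALT2 (-0.35), BMP1 (-0.27) and PCOLCE (-0.38) at day 7 ended. Without labelled knockout replicate 2 of day 7, those of COLGALT2 (-0.53), BMP1 (-0.52), ADAMTS2 (-0.72) and P4HB (-0.47) ended. The prolyl hydroxylase subunit P4HA1 averaged 48.1 FPKM under the knockout label at day 7, against 129 FPKM in wild type (-1.41, SE 0.10, adjusted p = 7.20e-06), and 73.2 against 20.6 FPKM at day 15 (1.78, SE 0.10, adjusted p = 2.25e-06). PLOD2, a lysyl hydroxylase, averaged 17.9 FPKM at day 7 under the knockout label, against 81.6 FPKM in wild type (-2.13), and P4HA2 was also lower (-1.81). At day 3 LOX, the lysyl oxidase that crosslinks collagen and elastin, averaged 10.1 FPKM under the knockout label, against 50.8 FPKM in wild type (-2.22, SE 0.17, adjusted p = 2.49e-05). P4HB, the other prolyl hydroxylase subunit, was lower (-1.004), as was PLOD1, a lysyl hydroxylase (-0.81). At day 15 the lysyl oxidase homologues LOXL3 and LOXL1 changed in opposite directions (1.23 and -0.998).

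Of 22 matrix receptors, 2 were higher and 7 lower at day 3, 1 higher and 10 lower at day 7, and 7 higher and 4 lower at day 15. These are 40.9%, 50% and 50% of the list, beside 23.6%, 42% and 35.1% of all genes, and the share at day 7 was near that of all genes. The counts of lower receptors shrank when some single libraries were left out, which leaves 1 library in a group. The 7 at day 3 became 4 without wild-type replicate 1, and the 10 at day 7 became 5 without labelled knockout replicate 2 and 6 without wild-type replicate 1. The 4 at day 15 became 0 without labelled knockout replicate 2 and 1 without either wild-type library. SDC4, a syndecan that acts with integrins at fibronectin, averaged 40.0 FPKM at day 7 under the knockout label, against 126 FPKM in wild type (-1.62, SE 0.10, adjusted p = 2.15e-06), and was lower at day 3 as well (-0.83). ITGA6, the alpha chain of laminin receptors, averaged 73.2 FPKM at day 3 under the knockout label, against 27.7 FPKM in wild type (1.38, SE 0.19, adjusted p = 0.000674). ITGA9, a receptor chain for tenascin and other ligands, was lower at day 3 (-1.42) and higher at day 15 (1.20). At day 7 the laminin receptor chains ITGA3 and ITGA7 moved in opposite directions (-1.17 and 0.72). The syndecans SDC1 and SDC2 were higher at day 15 (0.99 and 1.24). Of 14 matrix proteases and inhibitors, 2 were higher and 7 lower at day 3, 1 higher and 6 lower at day 7, and 3 higher and 3 lower at day 15. These are 64.3%, 50% and 42.9% of the list, and the shares at days 7 and 15 were near those of all genes. The 3 lower proteases or inhibitors at day 15 became 5 without labelled knockout replicate 1, and the 2 higher at day 3 became 1 without any library of that day. MMP2, a gelatinase, averaged 39.6 FPKM at day 3 under the knockout label, against 106 FPKM in wild type (-1.39, SE 0.14, adjusted p = 0.000111), and was lower at day 7 as well (-1.17). MMP15, a membrane protease, and TIMP1, an inhibitor, were lower at day 3 (-1.02 and -1.07) and day 7 (-1.22 and -1.04). At day 15 MMP17, a membrane protease, and ADAMTS1, which cleaves versican, were higher (1.595 and 1.04).

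Markers of other cell types were read in the same libraries. Smooth muscle markers summed to 190.0 to 209 FPKM at day 7 under the knockout label, against 1045 to 1076 FPKM in wild type, and to 402 to 471 against 1838 to 1999 FPKM at day 15, with 4 of 6 lower at each of these days. ACTA2 and TAGLN made up most of these sums. MYH11 and SMTN overlapped between the genotypes at day 7, MYH11 at 2.96 and 2.37 FPKM under the knockout label, against 2.74 and 1.98 FPKM in wild type. Epicardial and fibroblast markers summed to 42.0 to 45.3 FPKM at day 7 under the knockout label, against 46.2 to 48.0 FPKM in wild type. At day 15 they summed to 39.7 to 49.1 FPKM under the knockout label, against 17.4 to 19.6 FPKM in wild type, with 2 of 4 higher. Endoderm markers summed to 47.4 to 51.2 FPKM at day 3 under the knockout label, against 176 to 182 FPKM in wild type. At day 15 they summed to 60.9 to 66.1 FPKM under the knockout label, against 159.7 to 185 FPKM in wild type, with 2 of 5 lower. APOA1 made up most of that gap, at 20.2 and 24.2 FPKM under the knockout label, against 118 and 138 FPKM in wild type. Cardiac mesoderm markers, those of the labelled cell type at day 3, summed to 346 to 369 FPKM at that day under the knockout label, against 913 to 918 FPKM in wild type, with 4 of 7 lower and 1 higher. APLNR made up most of that gap, at 230 and 220 FPKM under the knockout label, against 734 and 734 FPKM in wild type. KDR and TMEM88 ran the other way, KDR at 71.4 and 58.0 FPKM against 50.4 and 48.8 FPKM. Pluripotency markers summed to 433 to 465 FPKM at day 15 under the knockout label, against 119.9 to 139 FPKM in wild type, with 2 of 5 higher and 1 lower. LIN28A made up most of that gap, at 365.5 and 332.6 FPKM under the knockout label, against 60.7 and 64.3 FPKM in wild type. POU5F1 overlapped between the genotypes, at 39.1 and 27.5 FPKM against 23.4 and 36.7 FPKM. The part of these marker genes in the matrix results was not tested.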

How the data were processed

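Total RNA of 12 libraries was sequenced on a HiSeq X10 after Trizol extraction, per the labels' protocols. Each deposited file holds 1 value per gene symbol for 1 library. No unit is named, and the values were taken as FPKM made by the authors, since they are not whole and their sums differ between libraries. BWA and hg38 are named per the submitters' processing notes. The counting tool and its strand setting are not stated in what was read here, and depth in reads is unknown, so no counting interval is given.

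Values were analysed as log2(FPKM + 1) with limma 3.58.1 in R 4.3.3, with a trend, 6 group means, 12 libraries and 6 residual degrees of freedom. Genes with 1 FPKM or more in at least 2 libraries were kept, 16295 of 17096. Adjusted p-values are Benjamini-Hochberg over all genes, with a threshold of 0.05, in 9 comparisons. The script was tested on simulated data. The members and lists were chosen with earlier results of these data known. The rule for named genes took a list of 34 symbols, the 5 highest and 5 lowest calls with a group mean of at least 5 FPKM in each comparison (4 for differences between days), and members called in 1 direction at all 3 days. It named 49 members. Gene places are from GENCODE 29 on GRCh38. Alternatives were median-ratio scaling, scaling to nuclear genes, no filter, a 5 FPKM filter, a pseudocount of 0.1, no trend, the compared groups alone, the replicate number as a block, and each library left out. At day 15 a block with crossed numbers, and the same alternatives for changes over time, were added after seeing the data. Some genes counted here are not reported by name.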

Additional observations from a re-analysis of the deposited data

Results flagged for a closer look

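The results here are those members whose difference between the genotypes itself differed between neighbouring days, by the interaction term of limma with Benjamini-Hochberg adjustment over all 16295 genes, among the 4 that moved up most and the 4 that moved down most of those with a group mean of at least 5 FPKM. Each value is the log2 change, labelled knockout minus wild type, at the later day minus that at the earlier day.

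Between days 3 and 7 the genotype difference moved up in COL2A1 (1.71, SE 0.26, adjusted p = 0.00157). ELN moved up (1.66, SE 0.34, adjusted p = 0.00819), FBN3 (1.48, SE 0.29, adjusted p = 0.00581) and FBN1 (1.47, SE 0.43, adjusted p = 0.0355). It moved down in COL22A1 (-2.80, SE 0.42, adjusted p = 0.00152) and in COL11A2 (-1.88, SE 0.26, adjusted p = 0.00104). In COL6A3 it moved (-1.26, SE 0.29, adjusted p = 0.0142) and in LAMB1 (-1.07, SE 0.14, adjusted p = 0.000729). The call for FBN1 ended without labelled knockout replicate 2 of day 3 (0.997), wild-type replicate 2 of day 3 (1.25), labelled knockout replicate 1 (1.39) or 2 (1.56) of day 7, or wild-type replicate 1 (1.30) or 2 (1.64) of day 7. That for COL6A3 ended without wild-type replicate 2 of day 3 (-1.03) or wild-type replicate 1 of day 7 (-1.14). It also ended with 0.1 in place of 1 added to each FPKM (-1.50). At day 3 COL6A3 was very low, at 0.284 and 0.259 FPKM under the knockout label, against 0.593 and 0.169 FPKM in wild type.

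Between days 7 and 15 the genotype difference moved up in COL22A1 (3.79, SE 0.42, adjusted p = 0.000171) and in FBN2 (3.28, SE 0.20, adjusted p = 5.17e-06). VCAN moved up (2.81, SE 0.23, adjusted p = 2.88e-05) and BGN (2.07, SE 0.26, adjusted p = 0.000358). It moved down in COL7A1 (-3.07, SE 0.31, adjusted p = 0.000111) and in PAPLN (-2.96, SE 0.38, adjusted p = 0.000406). In LAMA5 it moved (-1.96, SE 0.17, adjusted p = 4.46e-05) and in FBN1 (-1.92, SE 0.43, adjusted p = 0.00734). COL22A1 and FBN1 thus moved one way between days 3 and 7 and the other way between days 7 and 15. At day 15 the labelled knockout libraries had higher endothelial and epicardial or fibroblast marker sums and lower cardiomyocyte and smooth muscle marker sums than wild type, and the part of these in the shifts was not tested.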

How the results depend on the processing

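For the named members 441 results were each recomputed under the alternatives that applied to them, with 5684 recomputations in all. None of the 273 calls changed sign, 206 kept their call under every alternative, and 251 recomputations ended a call while 85 made one. For results that had not passed, 117 recomputations changed the sign. The count of 25 members whose genotype difference moved between days 3 and 7 ranged from 15 to 22 when 1 library was left out. Replicate numbers had no stated pairing. Deviations of same-numbered libraries of the genotypes correlated at 0.037, 0.024 and -0.121 at days 3, 7 and 15, those of different days at 0.103 to 0.206 under the knockout label and -0.035 to 0.017 in wild type. The replicate block gave 27, 34 and 32 members called, against 29, 33 and 33 without it. It ended the genotype calls of COL14A1 (0.74) and NID1 (-0.46) at day 3 and of COL6A2 (0.43) at day 15 among named members. A crossed block at day 15, chosen after seeing the data, gave 33. In the compared groups alone, the day 7 calls between the genotypes ended for COL16A1 (0.77) and COL7A1 (0.74). So did the day 15 calls of COL5A1 (-0.54), COL6A2 (0.43), FBLN2 (-0.97), NID2 (-0.60) and, outside the naming rule, THBS3 (-0.62). The rise of TCF3 at day 15 was 0.66 in the compared groups alone (adjusted p = 0.0838, limma) and 0.66 with the replicate block (adjusted p = 0.0557), neither passing, and ranged from 0.34 to 0.98 without single libraries. At day 7 TCF3 passed when scaled to nuclear genes (0.57) and in the compared groups alone (0.36). That scaling moved the share of higher calls over all genes from 40.3% to 62.3% at day 3 and from 52.6% to 68.2% at day 7, and in wild type after day 7 from 48.7% to 60.1%. For the shift between days 7 and 15 it moved that share from 52.2% to 37.7%. Read depth is unknown, which limits what low values can show.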
